A study of Homo sapiens with 6 samples.

Results

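The KLF and SOX genes are 2 families of DNA-binding transcription factors. Their members were taken as the genes of the count table named KLF or SOX plus a number, which gave 32 of 32453 features, 17 KLF and 15 SOX genes. The table holds 6 poly(A) RNA libraries, all labelled PANC-1, which is an established human pancreatic carcinoma line. In 3 libraries the treatment label is none (control-labelled libraries, or controls, below), and in the other 3 it is CAF-derived Evs (EV-labelled), extracellular vesicles (EVs) from cancer-associated fibroblasts (CAFs). No genotype change, vesicle dose or time is labelled. Since the protocol text mentions vesicle pretreatment for the controls too, the groups were read from the titles and treatment labels.

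KLF proteins bind GC-rich DNA and CACCC boxes through zinc fingers near the carboxy terminus, as their SP relatives do. Some activate transcription, others recruit the corepressors CtBP or SIN3, and several are induced early by serum, stress, fluid flow or hormones. SOX proteins carry an HMG box, which bends DNA, and are grouped by its sequence into classes B to H. SOX9 is known as a factor of pancreatic progenitors and ducts, and KLF4 and KLF5 act in epithelial differentiation and growth.

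Library totals ranged from 21669757 to 27535620 counts, so a count of 0 allows up to 3 counts, or 0.110 to 0.138 CPM, which are counts divided by the TMM-scaled library size (the limit covers counting error only). The labelled cell type was checked on markers. The keratin genes KRT8 (3063 ± 196 CPM in the controls, SD, n = 3) and KRT18 were abundant, as was VIM. In contrast, the epithelial genes CDH1 and EPCAM and the mesenchymal gene CDH2 had 0 counts in all 6 libraries, and KRT7 had 1 to 10. Whether the cells are PANC-1 was not tested.

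Promoter sequences are shown for the 5 tested members with the largest log2 fold changes in either direction: KLF4, KLF9, KLF2 and KLF6, which were lower in the EV-labelled libraries, and SOX4, which was higher. Each window is the 250 bases upstream of the RefSeq transcript start (GRCh38.p14), printed along the gene's strand: chr9:107489770-107490019 (minus) for KLF4, chr9:70414658-70414907 (minus) for KLF9, chr19:16324576-16324825 (plus) for KLF2, chr10:3785210-3785459 (minus) for KLF6 and chr6:21593501-21593750 (plus) for SOX4. Capitals mark GC boxes (CCGCCC or GGGCGG), E-boxes (CACGTG) and CCAAT boxes (CCAAT or ATTGG), which did not overlap each other in these windows.
KLF4: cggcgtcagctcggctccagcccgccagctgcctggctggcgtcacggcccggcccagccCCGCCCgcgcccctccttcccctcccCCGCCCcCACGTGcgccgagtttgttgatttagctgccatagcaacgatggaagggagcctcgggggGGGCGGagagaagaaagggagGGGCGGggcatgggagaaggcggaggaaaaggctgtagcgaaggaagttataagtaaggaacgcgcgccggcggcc
KLF9: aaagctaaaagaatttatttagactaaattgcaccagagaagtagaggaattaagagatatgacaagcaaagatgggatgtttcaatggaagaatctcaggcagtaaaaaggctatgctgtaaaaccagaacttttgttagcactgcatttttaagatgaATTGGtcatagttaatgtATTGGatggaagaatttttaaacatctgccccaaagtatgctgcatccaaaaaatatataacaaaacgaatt
KLF2: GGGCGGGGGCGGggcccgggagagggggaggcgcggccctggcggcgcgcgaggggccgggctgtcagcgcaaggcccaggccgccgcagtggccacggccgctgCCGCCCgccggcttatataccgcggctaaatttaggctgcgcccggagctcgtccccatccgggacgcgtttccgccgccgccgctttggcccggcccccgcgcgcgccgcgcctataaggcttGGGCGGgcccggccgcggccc
KLF6: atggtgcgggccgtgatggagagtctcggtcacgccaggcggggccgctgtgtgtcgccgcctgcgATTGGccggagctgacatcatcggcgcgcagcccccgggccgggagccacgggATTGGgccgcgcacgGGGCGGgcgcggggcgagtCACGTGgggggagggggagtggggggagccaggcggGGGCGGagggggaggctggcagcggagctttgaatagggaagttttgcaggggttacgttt
SOX4: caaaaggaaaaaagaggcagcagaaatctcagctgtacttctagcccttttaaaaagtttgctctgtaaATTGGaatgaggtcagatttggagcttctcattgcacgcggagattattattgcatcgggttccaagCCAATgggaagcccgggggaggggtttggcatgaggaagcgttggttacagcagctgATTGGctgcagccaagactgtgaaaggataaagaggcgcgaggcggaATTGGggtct
KLF4 and KLF2 had 4 GC boxes each, KLF6 had 2, and KLF9 and SOX4 had none. SOX4 had 4 CCAAT boxes, KLF9 and KLF6 had 2 each, and KLF4 and KLF2 had none. An E-box stood at 157 to 152 bases before the KLF4 start and at 97 to 92 bases before the KLF6 start. GC content was 69.2%, 80.0% and 72.4% for KLF4, KLF2 and KLF6, 32.4% for KLF9 and 48.8% for SOX4, against a median of 58.0% over 35116 promoters.

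Of the 19 members that passed the filter on low counts, 13 had RefSeq promoter windows of this kind, 18 windows in all. Motifs were searched on both strands. A GC box was found for 11 of these 13 genes, while 42.64% of the 35116 promoters held one. An E-box was found for 4, KLF4, KLF6, KLF11 and KLF15, against 6.34% of promoters. The CCAAT box was found for 8 (32.01% of promoters), CACCC or GGGTG for 6 (54.71%), the SOX site AACAAT for 2 (8.98%), the cyclic AMP response element TGACGTCA for 1, KLF11 (1.65%), and the AP-1 site TGACTCA for 0 (4.2%). A gene with several windows had more than 1 chance of a match. These matches describe letters, not binding.

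In the EV-labelled libraries most expressed KLF genes were lower, among them KLF4, KLF9, KLF2 and KLF6, while KLF15, SOX4, SOX18 and SOX8 were higher. Of the 19 members that passed the filter, 10 were called lower and 4 higher at an adjusted p under 0.05 (edgeR quasi-likelihood test). Over all 14670 tested genes 40.9% were called, 20.7% lower and 20.2% higher. By family, 8 KLF genes were lower and 1 higher of 12 tested, and 2 SOX genes were lower and 3 higher of 7 tested. The median log2 fold change was -0.58 over the tested KLF genes and 0.01 over the tested SOX genes, beside -0.01 over all tested genes. Calls depend on level. Where the mean over the libraries reached 10 CPM, 48.8% of tested genes were called, 21.6% lower and 27.2% higher. Of the 14 members at that level, 10 were lower, 2 were higher and 2 were not called. None of the 19 members that passed the filter changed 2-fold, while 5 were at least 1.5-fold lower (7.43% of all tested genes) and 1 at least 1.5-fold higher (3.67%).

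Both families' summed levels were lower in the EV-labelled libraries, although more tested SOX genes rose than fell. All KLF genes together took 1004 to 1095 CPM in the controls and 656 to 704 CPM in the EV-labelled ones. The SOX genes took 525 to 538 CPM and 421 to 454 CPM.

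**Figure D1:**
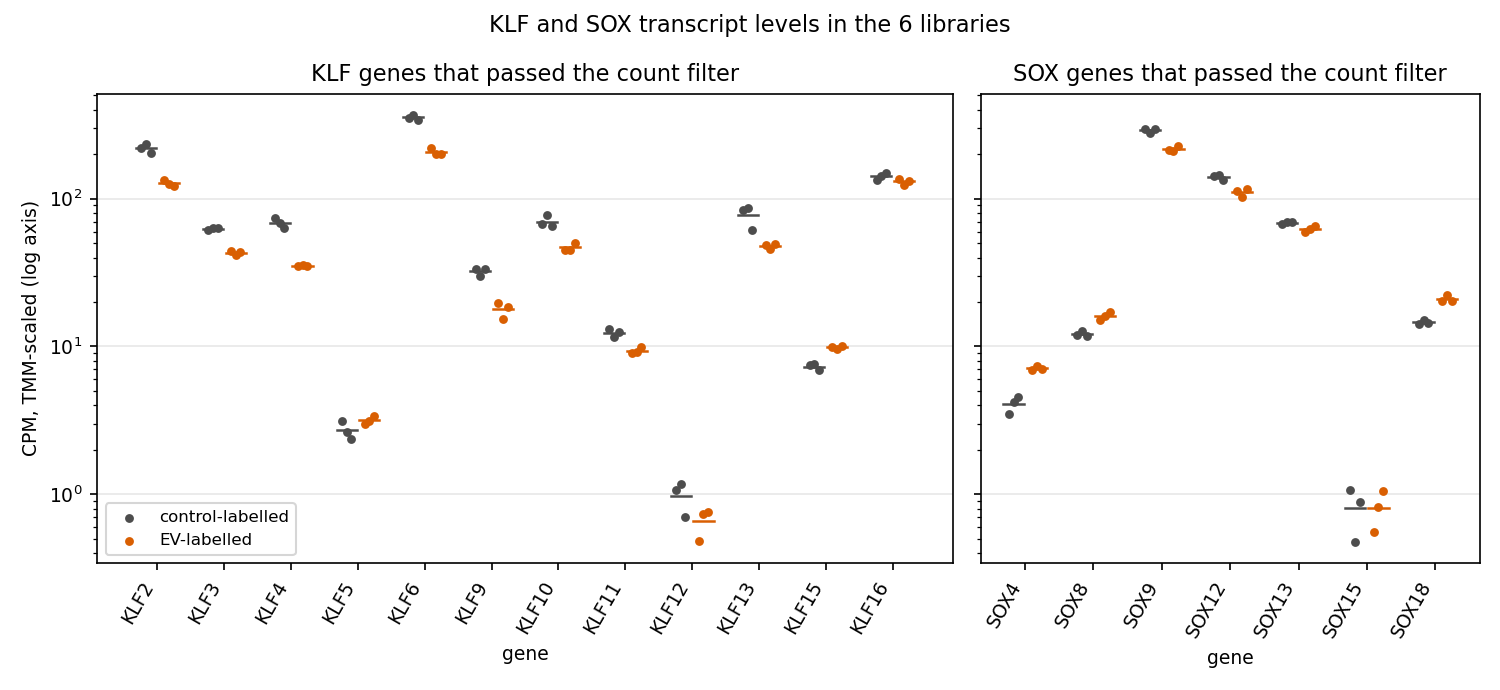
CPM (TMM-scaled, log axis) of the 12 KLF and 7 SOX genes that passed the count filter, with 1 point per library and a line at each group's mean (n = 3). For 4 genes all EV-labelled points lie above the control-labelled ones, and for 11 all lie below. Of all 14670 tested genes, 25.1% lie above and 25.5% below in this way.

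Among the activating KLF factors, KLF4 fell most. KLF4, a reprogramming factor that also drives epithelial barrier differentiation, was at 73.9, 68.6 and 63.8 CPM in the controls and at 35.3, 35.4 and 35.2 CPM in the EV-labelled ones. The EV-labelled libraries were nearly identical and every one lay far below the controls (log2 fold change EV-labelled over control-labelled -0.96 ± 0.07, SE; adjusted p = 3.24e-09). That is 1.95-fold lower. KLF2, a factor of endothelial and lymphocyte quiescence that flow induces, was at 220.4, 235 and 203 CPM against 133, 126 and 123 CPM (-0.79 ± 0.06, adjusted p = 1.95e-08). KLF6, an early-response factor found in most tissues, was at 354, 369 and 341 CPM against 219, 200.4 and 201 CPM (-0.78 ± 0.06, adjusted p = 8.32e-09). Both fell 1.72-fold, with no overlap between the groups. The abundant pair therefore shifted by nearly the same factor.

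KLF5, a growth factor-responsive activator of intestinal crypt cells, stood apart from these 3. It was low, at 3.13, 2.63 and 2.38 CPM in the controls and 2.995, 3.12 and 3.38 CPM in the EV-labelled libraries. The groups overlapped, and the log2 difference of 0.23 had a 95% interval from -0.13 to 0.58 (adjusted p = 0.3). The erythroid factor KLF1 had 0 or 1 count in every library. KLF7, a neuronal factor, had 1, 1 and 2 counts in the controls and 0 in each EV-labelled library, all within what a count of 0 allows.

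Of the repressors that recruit CtBP, KLF3 was well expressed and it fell. KLF3, which acts in blood and fat cells, was at 61.2, 63.4 and 63.6 CPM in the controls and 44.5, 41.3 and 43.4 CPM in the EV-labelled libraries. Replicates lay close together, and the groups did not overlap (-0.54 ± 0.06, adjusted p = 1.81e-06). KLF12, first known as a repressor of the AP-2 alpha gene, was at 1.07, 1.17 and 0.696 CPM against 0.481, 0.733 and 0.763 CPM. Its point estimate of -0.58 was close to that of KLF3, but at 13 to 32 counts per library the interval ran from -1.24 to 0.08 (adjusted p = 0.153). KLF8 had 1 count in 1 EV-labelled library and 0 elsewhere.

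The factors that recruit SIN3 include the hormone-responsive KLF9 and the TGF-beta inducible pair KLF10 and KLF11, and 4 of the 5 that were tested fell. KLF9, which glucocorticoids and thyroid hormone induce, was at 33.7, 29.9 and 33.3 CPM in the controls and at 19.7, 15.4 and 18.4 CPM in the EV-labelled ones (-0.85 ± 0.09, adjusted p = 7.01e-07). It was the member with the lowest fold change after KLF4. KLF13, an activator of the RANTES chemokine gene in T cells, was at 83.7, 86.5 and 61.3 CPM against 48.5, 45.7 and 49.5 CPM (-0.69 ± 0.10, adjusted p = 1.43e-05). Control replicate 3 lay well below the other controls but still above every EV-labelled library.

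KLF10 was at 67.4, 77.0 and 65.2 CPM in the controls and 45.2, 45.0 and 50.5 CPM in the EV-labelled libraries (-0.57 ± 0.07, adjusted p = 5.61e-06). KLF11 was at 13.1, 11.6 and 12.5 CPM against 9.06, 9.12 and 9.96 CPM (-0.40 ± 0.10, adjusted p = 0.00396). The groups did not overlap for either of the pair. KLF16, a repressor related to KLF9 and KLF13, was the tested SIN3-type factor that was not called. It was at 133, 142 and 150.1 CPM against 136, 125 and 132 CPM, with overlapping groups and a log2 difference of -0.11 (95% interval -0.24 to 0.02, adjusted p = 0.149).

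KLF14, an imprinted regulator of fat metabolism, did not pass the filter. It had 10, 23 and 9 counts in the controls against 5, 3 and 7 in the EV-labelled libraries, all of which were lower. Where other settings let it be tested, 3 of 5 called it lower: without a count filter (-1.37, adjusted p = 0.0296), without control replicate 3 (-1.64, adjusted p = 0.0144) and without EV replicate 3 (-1.68, adjusted p = 0.0379). It was not called without EV replicate 1 (-1.30, adjusted p = 0.0881) or EV replicate 2 (-1.20, adjusted p = 0.103). With a library left out, KLF14 passed the filter only through control replicates 1 and 2, where it was highest (0.428 and 0.841 CPM). The calls from those settings are therefore no support for a difference. The authors' deposited table marks a single KLF or SOX gene, KLF14, with a log2 fold change of 1.36 and a q of 0.0308. There a positive value means a higher control-labelled mean. The mark does not follow q alone, since KLF4 had a q of 8.38e-35 and no mark. At a q under 0.05, the authors' values gave the same call as here for all 19 tested members.

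KLF15 was the single KLF gene that rose. KLF15, a glucocorticoid-induced factor of amino acid breakdown and gluconeogenesis, was at 7.45, 7.57 and 6.93 CPM in the controls and 9.87, 9.63 and 10.0 CPM in the EV-labelled libraries. All EV-labelled libraries lay above the controls (0.43 ± 0.11, adjusted p = 0.00334). KLF9 and KLF15, both known as glucocorticoid-induced genes, moved in opposite directions, and the cause was not tested. KLF17, a germ cell and embryo factor, had 0 to 3 counts.

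**Figure D2:**
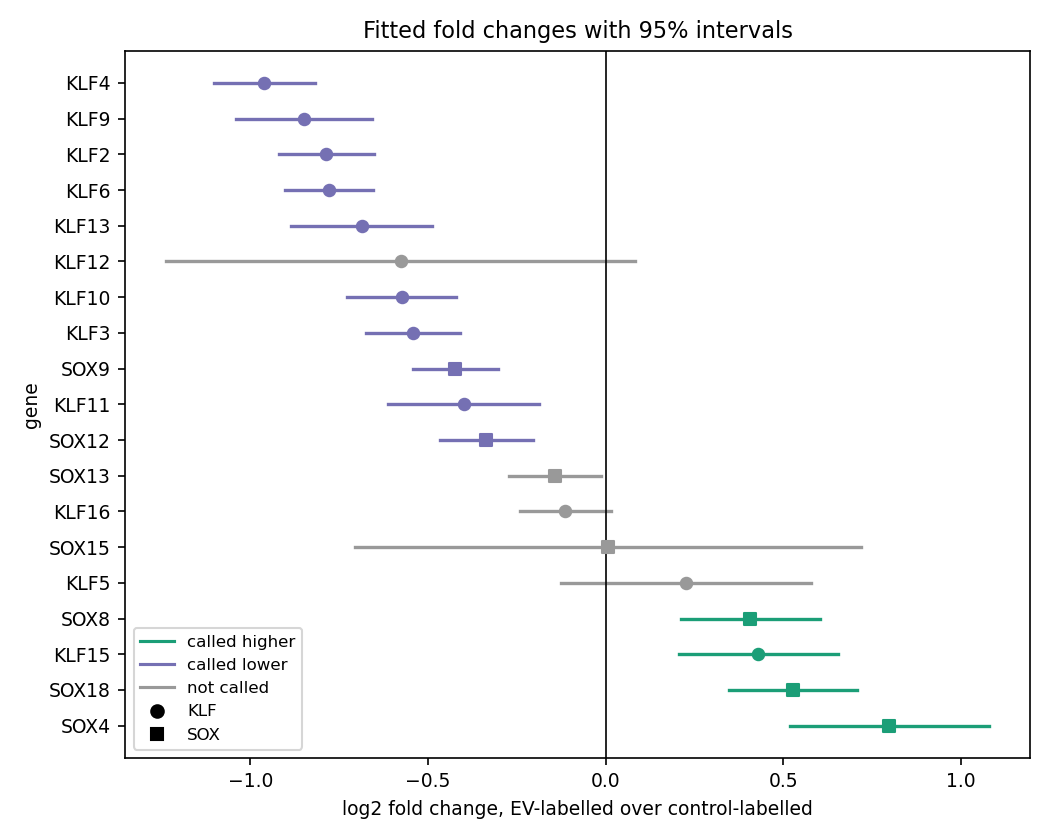
Fitted log2 fold changes (EV-labelled over control-labelled, horizontal axis) with 95% intervals that are not adjusted for the number of genes, for the 19 members that passed the filter (circles KLF, squares SOX). KLF4 at -0.96 and SOX4 at 0.80 are the ends of the range.

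SOX9 was the most abundant SOX gene and it fell. SOX9, a factor of ducts, progenitors and cartilage, was at 297, 279 and 295 CPM in the controls and 215, 209 and 226 CPM in the EV-labelled libraries. The groups were well separated, at 291 ± 10.3 against 217 ± 8.47 CPM (SD, n = 3 each), and the log2 fold change was -0.42 ± 0.06 (adjusted p = 1.06e-05). Its 95% interval, -0.54 to -0.30, did not overlap those of KLF4, KLF2 and KLF6, whose upper ends were -0.82, -0.65 and -0.66. SOX8, its relative in class E, went the other way. It was at 12.0, 12.7 and 11.7 CPM against 15.1, 16.2 and 17.0 CPM, with no overlap (0.41 ± 0.09, adjusted p = 0.00173). SOX10, the neural crest and Schwann cell member of the class, had 0 to 2 counts, and the Schwann cell gene S100B had 0.

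Class C split in the same manner. SOX4, which is known to act downstream of TGF-beta in carcinoma cells and in neural and lymphoid progenitors, was at 3.47, 4.20 and 4.55 CPM in the controls and 6.95, 7.33 and 7.07 CPM in the EV-labelled libraries. Each EV-labelled library exceeded each control, and the rise was 1.74-fold (0.80 ± 0.13, adjusted p = 0.000106). SOX12, the third class C gene of mammals beside SOX4 and SOX11, was at 142, 144 and 134 CPM against 113, 103 and 117 CPM (-0.34 ± 0.06, adjusted p = 0.000283). Fewer SOX12 transcripts thus accompanied more SOX4, without overlap in either gene. SOX11 was not among the 15 SOX genes of the count table, so its level is not known here.

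SOX18, a class F factor of blood and lymph vessel development, rose. It was at 14.3, 15.2 and 14.3 CPM in the controls and 20.4, 22.4 and 20.3 CPM in the EV-labelled libraries (0.53 ± 0.09, adjusted p = 8.04e-05). Its class F partners were absent or nearly so: SOX17 had 0 counts in all libraries and SOX7 had 1 to 6. Of 4 endothelial markers, CDH5 was at 4.23 ± 0.274 against 4.71 ± 0.502 CPM and was not called (adjusted p = 0.415), VWF and PECAM1 had 0 to 9 counts, and KDR had 0. Their summed level was 4.28 to 5.06 CPM in the controls and 4.42 to 5.36 CPM in the EV-labelled libraries.

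In class D, SOX13 was expressed and was close to the threshold. SOX13, which acts in T cells and lacks a transactivation domain of its own, was at 67.1, 69.6 and 69.4 CPM against 59.5, 62.0 and 65.3 CPM. The groups did not overlap, yet the fall of 0.14 on the log2 scale was not called (adjusted p = 0.0727, unadjusted 95% interval -0.27 to -0.01). Non-overlap by itself was common: 50.6% of all tested genes showed it, 25.5% with the EV-labelled libraries below and 25.1% above. SOX6 had 3 to 7 counts and SOX5 had 0. SOX15, the class G gene, known from muscle and placenta, was at 1.07, 0.475 and 0.880 CPM against 0.555, 0.825 and 1.04 CPM. Its groups overlapped almost entirely, and the log2 interval of -0.71 to 0.72 was too wide to limit the difference (adjusted p = 0.991).

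The pluripotency factor SOX2 and its antagonist of class B, SOX21, had 0 counts in all 6 libraries. SOX30, a factor of spermatogenesis, had 0 to 2. In all, 4 members had 0 counts throughout and 9 more had counts but did not pass the filter. Loci that could share reads with the members had few counts. Shared reads may have been counted for the members, so these counts cannot show whether reads were shared. The pseudogenes KLF2P1 and KLF2P2 had 0 counts, KLF3P1 had 0 or 1, the antisense gene KLF3-AS1 had 4 to 12, and SOX9-AS1 had 6 to 26 and was not called (adjusted p = 0.262).

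Levels of different genes were compared as CPM per kilobase of exon. In the control-labelled libraries KLF2 came first at 109 ± 7.95, followed by SOX9 at 73.8 ± 2.61, KLF6 at 57.8 ± 2.32, KLF16 at 47.9 ± 2.88 and SOX12 at 30.3 ± 1.19 CPM per kilobase (SD, n = 3). Each of these was separate from the next in all libraries, for the lengths used. A length covers all annotated exons of a gene, and the lengths of the transcripts expressed were not known. In CPM not divided by length, KLF6 stood at 355, SOX9 at 291 and KLF2 at 219 in the controls, so the order of these genes depends on the lengths. The libraries of KLF4 (18.8 ± 1.37) and KLF10 (17.5 ± 1.58) overlapped, as did those of SOX13, KLF13 and SOX18 in turn, and of SOX8, KLF11 and KLF15. KLF5 at 0.697 ± 0.0974 and SOX4 at 0.696 ± 0.0939 could not be ordered, and KLF12 came last at 0.0896 ± 0.0229 CPM per kilobase.

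The order differed in the EV-labelled libraries. KLF2 (63.0 ± 2.76) and SOX9 (55.0 ± 2.15) still led, but KLF16 at 44.3 ± 1.89 now stood above KLF6 at 33.7 ± 1.72 CPM per kilobase, with no overlap. SOX18 at 11.3 ± 0.628 stood above KLF4 at 9.65 ± 0.0203, whereas KLF4 had been the higher of this pair in the controls. SOX4 at 1.22 ± 0.0334 stood above KLF5 at 0.812 ± 0.0498 CPM per kilobase.

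**Figure D3:**
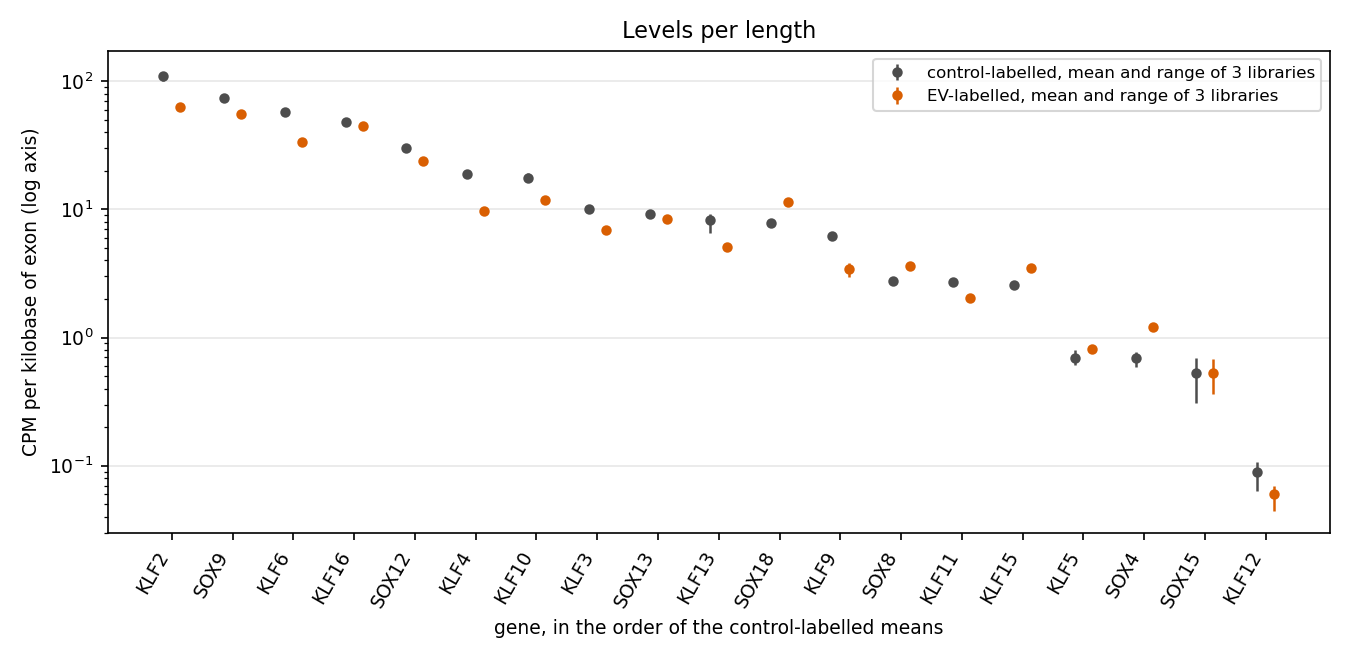
CPM per kilobase of exon (log axis) of the 19 members that passed the filter, as the mean and the range of 3 libraries per group, in the order of the control-labelled means. KLF2 leads both groups and KLF12 is last in both.

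Genes that act with the KLF factors moved in both directions. The lists can be read beside all tested genes, of which 20.2% were higher and 20.7% lower. At a mean of at least 10 CPM these shares were 27.2% and 21.6%. SP genes, the closest relatives, had 1 higher and 1 lower of 5 tested and 9 listed (20% of the tested each, median log2 fold change 0.08). SP2 fell (-0.33 ± 0.09, adjusted p = 0.00676). SP6, a factor of teeth and skin, was at 2.67 ± 0.309 against 1.75 ± 0.541 CPM (0.59, adjusted p = 0.0333), and it was not called without control replicate 1 (0.47, adjusted p = 0.123), control replicate 3 (0.47, adjusted p = 0.128), EV replicate 2 (0.58, adjusted p = 0.0834) or EV replicate 3 (0.53, adjusted p = 0.118), nor by DESeq2 (0.61, adjusted p = 0.0634). Without control replicate 2 the SP list had 2 lower. Of 17 cofactors 4 fell (23.5%) and 2 rose (11.8%, median -0.08). CREBBP, a histone acetyltransferase (-0.38 ± 0.07), and the corepressor gene NCOR1 (-0.24 ± 0.06) fell, and WDR5, a subunit of histone H3 lysine methyltransferases, rose (0.24 ± 0.06). After correction for GC content and exon length this list had 5 higher and 2 lower. Without control replicate 2 or EV replicate 3 it had 1 higher.

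The route from MEK5 through ERK5 to MEF2, which is known to drive KLF2 and KLF4, was listed with enzymes of KLF protein turnover. Of 15 tested and 17 listed, 7 fell and 1 rose (median -0.05). That is 46.7% lower and 6.67% higher, beside 20.7% and 20.2% of all tested genes. HDAC5, a class IIa deacetylase that holds MEF2 inactive, was at 25.7, 29.7 and 28.96 CPM in the controls and 15.8, 13.3 and 13.5 CPM in the EV-labelled libraries (-0.98 ± 0.09, adjusted p = 1.13e-07). MEF2D, a MADS box factor, was at 88.4, 91.0 and 76.6 CPM against 60.3, 55.1 and 57.5 CPM (-0.56 ± 0.07, adjusted p = 4.02e-06). HDAC5, an inhibitor, and MEF2D, an effector of the route, were thus both lower. HDAC7, another deacetylase gene of this list, was not called (-0.01 ± 0.07, adjusted p = 0.921). The MEK5 gene MAP2K5 (-0.35 ± 0.09, adjusted p = 0.00378) and MEF2A (-0.28 ± 0.07, adjusted p = 0.00483) fell too. MAPK7, which encodes ERK5, was not called (-0.02 ± 0.08, adjusted p = 0.855). Whether the activity of the route differed was not tested. The kinase gene MAP3K2 fell (-0.45 ± 0.07) and MAP3K3, its relative, rose (0.35 ± 0.07). The list had 2 higher without control replicate 3 or EV replicate 1, and 4 higher after correction for GC content and exon length.

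Among nuclear receptors and hormone-induced genes, 2 rose and 2 fell of 5 tested and 8 listed (40% of the tested each, median 0.09). TSC22D3, the glucocorticoid-induced leucine zipper gene, was at 13.0, 14.6 and 15.9 CPM in the controls and 5.62, 3.03 and 3.17 CPM in the EV-labelled libraries (-1.86 ± 0.17, adjusted p = 6.76e-08). PER1, a clock gene that glucocorticoids also induce, fell (-0.36 ± 0.10). FKBP5, another glucocorticoid target, rose (0.21 ± 0.06), as did the thyroid hormone receptor gene THRA (0.38 ± 0.07). Of these glucocorticoid targets, TSC22D3 and PER1 fell and FKBP5 rose. The glucocorticoid receptor gene NR3C1 was not called (0.09 ± 0.07, adjusted p = 0.297). Whether glucocorticoid signalling differed between the groups was not tested.

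Of 24 genes listed as KLF targets, 16 were tested, 5 rose and 5 fell (31.2% each, median 0.10). Of all tested genes 20.2% rose and 20.7% fell. KRT13, a keratin of stratified epithelia, was at 6.38, 6.40 and 5.79 CPM in the controls and 1.85, 1.01 and 1.45 CPM in the EV-labelled libraries (-2.08 ± 0.18, adjusted p = 4.67e-08). KRT15, a basal keratin, fell as well (-0.96 ± 0.08, adjusted p = 2.84e-08). CCNE1, which encodes the G1/S cyclin E1 and which KLF4 is known to repress, rose from 25.7 ± 0.290 to 42.4 ± 2.54 CPM (0.72 ± 0.07, adjusted p = 2.7e-07), and LAMA5, a laminin chain, rose too (0.80 ± 0.09). The count of lower genes was 3 instead of 5 without control replicate 2, control replicate 3, EV replicate 1 or EV replicate 3, without a count filter, and after correction for GC content and exon length.

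On the SOX side, 8 of 18 regulators of SOX protein level and import rose and 1 fell (median 0.16). That is 44.4% higher and 5.56% lower, beside 20.2% and 20.7% of all tested genes. At a mean of at least 10 CPM the shares over tested genes were 27.2% and 21.6%. Calmodulin is known to aid the nuclear import of SOX9, and CALM2 rose from 294 ± 29.2 to 454 ± 57.2 CPM (0.63 ± 0.08, adjusted p = 5.7e-06), with CALM3 at 0.34 ± 0.05. USP7, a deubiquitinase, rose (0.24 ± 0.06), while HUWE1, a ubiquitin ligase, fell (-0.46 ± 0.08). Without control replicate 2 the list had 5 higher. SOX partner and opposing factors had 1 higher, the beta-catenin gene CTNNB1 (0.25 ± 0.06), and 1 lower, TCF7L1 (-0.48 ± 0.10), of 7 tested and 15 listed (median -0.07). Each direction made up 14.3% of the tested genes of this list. That list had 2 lower without control replicate 2, EV replicate 1 or EV replicate 3 and with the replicate block, and 2 higher after correction for GC content and exon length.

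Textbook SOX targets had 2 higher and 0 lower of 9 tested and 25 listed (median 0.15). The share higher, 22.2%, was near the 20.2% over all tested genes, of which 20.7% were lower. TUBB3, a neuronal tubulin that SOX4 and SOX11 are known to activate, was at 11.1, 11.4 and 10.6 CPM in the controls and 15.6, 13.0 and 14.3 CPM in the EV-labelled libraries (0.38 ± 0.10, adjusted p = 0.0045). ERBB3, a receptor gene that SOX10 activates in Schwann cells, was at 3.20 ± 0.601 against 4.68 ± 0.808 CPM with overlapping groups (0.56, adjusted p = 0.0126). It was not called without control replicate 3 (0.45, adjusted p = 0.0625) or EV replicate 3 (0.44, adjusted p = 0.077). Cartilage targets of SOX9 such as ACAN and COMP had 0 counts.

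Markers of other cell types were mostly near 0, as far as they were analysed here. Of 10 fibroblast markers, the cells from which the vesicles came, 9 were analysed and 2 tested. COL1A2 rose (0.71 ± 0.07, adjusted p = 3.72e-07) and COL3A1 was not called (adjusted p = 0.398). DCN, LUM, POSTN and THY1 had 0 counts in all libraries and COL1A1 had 1 to 3. PDGFRB, not tested, had 3, 5 and 13 counts in the controls and 0, 0 and 2 in the EV-labelled libraries. PDGFRA, also not tested, had 3, 0 and 3 counts in the controls and 0 in each EV-labelled library. Without a count filter the fibroblast list had 1 lower. The summed level of the fibroblast markers was 115 to 141 CPM in the controls and 197 to 216 CPM in the EV-labelled libraries. Immune markers summed to 0.220 to 0.471 CPM and 0.0917 to 0.407 CPM, with PTPRC at 0. Melanocyte and Schwann cell markers (2.85 to 2.87 and 2.55 to 3.13 CPM) had 0 called of 1 tested, MITF (adjusted p = 0.951). Neuronal markers summed to 11.2 to 11.8 and 14.3 to 16.7 CPM, with TUBB3 called. The acinar and islet markers CPA1 and CHGA had 0 counts. Of 6 epithelial carcinoma markers, 3 were tested: KRT19 fell (-0.48 ± 0.06), while KRT8 at 0.14 ± 0.06 (adjusted p = 0.0687) and KRT18 at 0.11 ± 0.06 (adjusted p = 0.132) were not called. This list had 1 higher with library totals alone, without a count filter, without control replicate 2, with DESeq2 and with limma-voom, and 2 higher after correction for GC content and exon length. The mesenchymal marker VIM fell (-0.37 ± 0.05).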

How the data were processed

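The authors deposited raw counts per gene for 6 libraries. Their second table compares the groups and gives, per the file headers, log2 means, a log2 fold change, a p-value and a q-value for each gene. TopHat, RSEM and hg19 are named, without versions or roles, per the submitters' processing notes. The annotation and any use of strand in counting are not stated there. Nothing says that replicates were separate cultures, so the p-values reflect a spread between libraries that may be technical. No 2 replicates agreed within sampling noise.

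The 375 features with only an assembly number (MSTRG), 0.099% to 0.134% of counts, were left out. All other genes were fitted with edgeR 4.0.16 in R 4.3.3 (quasi-likelihood test, TMM factors, filterByExpr, Benjamini-Hochberg over 14670 genes). Fold changes use a prior count of 0.125, and the SE is the coefficient over the square root of F. The fit was also run on counts simulated from its own model, which cannot check whether that model suits these data. Exon lengths come from GENCODE v29 (GRCh38) and promoters from RefSeq (GRCh38.p14). No protein sequences were used here.

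Members and lists were chosen with earlier results of these data known. All members are named, and from each list up to 4 called genes with the lowest adjusted p, of which some are not reported here. Other genes named, as exceptions, core genes of a list, markers or genes at 0, were chosen after their values were seen. Alternatives were other scalings and filters, each library left out, a replicate block, DESeq2 1.42.0, limma-voom (limma 3.58.1), stricter thresholds and MSTRG features kept. A correction for GC content and exon length was chosen after seeing the data.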

Additional observations from a re-analysis of the deposited data

How the results depend on the processing

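Under all 16 other fits, the 14 called members kept their direction and stayed called. Leaving out each library in turn gave 4 higher and 10 to 11 lower members. The eleventh was KLF14, which passed the filter there only through control replicates in which it was high, so it adds no support. With at least 2-fold asked beside the adjusted p, 0 of the 19 tested members were higher and 0 lower. SOX13 was called lower with upper-quartile scaling (adjusted p = 0.0405). SOX15, never called, turned negative with upper-quartile scaling (-0.014), and leaving out single libraries moved it between -0.27 and 0.24, negative without control replicate 2, EV replicate 2 (-0.0098) or EV replicate 3 (-0.23), and the cause was not tested. Replicate numbers did not pair the libraries (correlations of deviations -0.02, -0.01 and -0.01), and the replicate block gave 4 higher and 10 lower. Depth limits the members under about 1 CPM, KLF12, SOX15 and KLF14.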
